A study of Mus musculus with 8 samples.

Results

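The 10 genes described here are those of the classical heat shock response: the transcription factor gene *Hsf1* and 9 chaperone genes, *Hspa1a*, *Hspa1b*, *Hspa8*, *Hsph1*, *Dnajb1*, *Hsp90aa1*, *Hsp90ab1*, *Hspd1* and *Hspe1*. They were picked by name out of 56691 genes in a table of raw counts, and all 10 passed the filter on low counts that left 22423 genes. The choice was made with the difference between genotypes in these same mice already known. That difference is therefore only described below, and counts of the 10 genes from tests across all genes are given for reference. Bulk RNA sequencing had been performed on the cerebellum of 4 *Atm*-WT mice (*Atm* +/+; mice 2M, 7M, 13M and 32M) and 4 *Atm*-KO mice (*Atm* -/-; mice 1M, 7F, 11M and 12M), with a library for each mouse. All mice came from the B6;129S4-Atmtm1Bal/J line, in which crosses of heterozygous parents gave the knockouts and the littermate controls, and were 6 months old. *Atm* encodes a kinase of the DNA damage response, and its germline loss affects every cell of the animal.

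When proteins unfold, the transcription factor HSF1 is released from chaperones, forms trimers and binds heat shock elements, which are inverted repeats of the unit nGAAn, in front of chaperone genes. HSP70 proteins then bind exposed stretches of unfolded proteins, J-domain proteins such as DNAJB1 load them, and HSP110 proteins such as HSPH1 exchange their nucleotide. HSP90 finishes the folding of kinases and receptors, and HSP60 with HSP10 folds proteins inside mitochondria. *Hspa8* and *Hsp90ab1* are known as forms that are made all the time, *Hspa1a* and *Hspa1b* as forms that are strongly induced by stress.

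The heat shock element was searched in the 300 bases before the start of each gene's canonical transcript, on both strands of GRCm39 (GENCODE vM39, the C57BL/6J reference). Elements of 3 units were written as GAANNTTCNNGAA or TTCNNGAANNTTC and elements of 2 units as GAANNTTC or TTCNNGAA, so each element of 3 units also holds elements of 2 units. Of 15322 promoters searched, 73 (0.476%) held 3 units and 2071 (13.5%) held at least 2 units. Among the 10 genes, 5 held at least 2 units in this window and 2 of those held 3 units. The stretches around them are shown because they carry the shared control element for which these genes are known, with the units in capitals:
*Hspa1a*: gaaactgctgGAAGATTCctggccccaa
*Hspa1b*: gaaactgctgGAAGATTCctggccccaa
*Hsph1*: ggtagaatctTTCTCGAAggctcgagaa
*Hspd1*: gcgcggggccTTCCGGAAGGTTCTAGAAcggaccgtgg
*Hspe1*: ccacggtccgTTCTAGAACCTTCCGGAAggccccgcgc

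The *Hspa1a* stretch lies at chr17:35191219-35191246 and the *Hspa1b* stretch at chr17:35178301-35178328, both on the minus strand, and their letters are identical. The element ends 97 bases before the start in both genes. The *Hsph1* stretch lies at chr5:149559817-149559844 on the minus strand, with its element 21 bases before the start. *Hspd1* and *Hspe1* read the same stretch, chr1:55127208-55127245, on the minus and the plus strand, since they are transcribed away from each other from starts 108 bases apart. The nearest element of 3 units ends 35 bases before the *Hspd1* start and 56 bases before the *Hspe1* start. In the other 5 genes, *Hsf1*, *Hspa8*, *Dnajb1*, *Hsp90aa1* and *Hsp90ab1*, these letters were not found in this window. A match is a run of letters in the reference and not a measurement of binding.

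*Hspa1a* and *Hspa1b* are near-identical copies whose starts lie 12.9 kb apart on chromosome 17. Their coding sequences share 1918 of 1929 aligned positions (99.4%), and 38.1% of the 150-base windows of the *Hspa1a* transcript also occur in *Hspa1b*. How reads that fit both copies were counted is not stated, so the values of the pair are uncertain as to which copy they came from.

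Each library held between 65967130 and 88030300 counts. Levels are given as CPM, the counts scaled to a common library size after TMM normalization, and the lowest count of any of the 10 genes in any library was 219 (*Hspa1b* in *Atm*-WT mouse 13M). As a check of the labels, *Atm* itself was at 67.6, 80, 79.4 and 59 CPM in *Atm*-WT mice 2M, 7M, 13M and 32M and at 51.1, 44.3, 41.1 and 44.9 CPM in *Atm*-KO mice 1M, 7F, 11M and 12M, with every knockout mouse below every control. Purkinje cell and granule cell markers were abundant in all 8 libraries, with summed levels of 7501 to 9486 CPM over 5 Purkinje markers and 3135 to 4857 CPM over 5 granule markers. The library of *Atm*-KO mouse 12M stood apart. *Slc17a6*, the glutamate transporter gene of deep nuclei and brainstem neurons, was at 4.32 CPM there and at 73.6 to 116 CPM in the other 7 mice, and the oligodendrocyte marker sum was lowest (1711 CPM) and the granule marker sum highest (4857 CPM) in this mouse. Without it the log2 fold changes of the 10 genes described below kept their direction, and that of *Hsph1* moved most, from −0.36 to −0.24. Mitochondrial genes took 0.903% to 1.2% of the counts of the controls and 0.565% to 0.952% of those of the knockouts.

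To compare levels between genes, CPM were divided by the length of the canonical transcript in kilobases. *Hspa8*, which encodes the constitutive HSP70 (HSC70), came first with 605 CPM per kilobase in *Atm*-WT mice, followed by the HSP90 genes *Hsp90ab1* with 352 and *Hsp90aa1* with 281. *Hspd1* (HSP60) had 59.9, *Hspe1* (HSP10) 44.3, *Hsph1* (HSP110) 23.8 and *Dnajb1* 14.9 CPM per kilobase. *Hsf1* had 5.16, and the stress-inducible pair came last with 4 for *Hspa1b* and 3.36 for *Hspa1a*. Mouse 7M set the level of this pair in the controls, and without it the pair was still last, in the other order, with 1.57 for *Hspa1a* and 1.46 for *Hspa1b*. In *Atm*-KO mice the level of *Hspa8* was 351 CPM per kilobase and the order of the other genes was the same down to *Hsf1*, with the pair last at 1.57 for *Hspa1a* and 1.49 for *Hspa1b*. The ranges over mice of *Hsp90ab1* and *Hsp90aa1* overlapped in both genotypes (284 to 410 and 250 to 326 CPM per kilobase in *Atm*-WT mice), and so did those of *Hspa1b* and *Hspa1a*. Neighbouring ranges also overlapped in *Atm*-WT mice for *Hspd1* and *Hspe1*, for *Hsph1* and *Dnajb1* and for *Hsf1* and *Hspa1b*, and in *Atm*-KO mice for *Hspa8* and *Hsp90ab1*. The other neighbours in this order did not overlap.

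**Figure D1:**
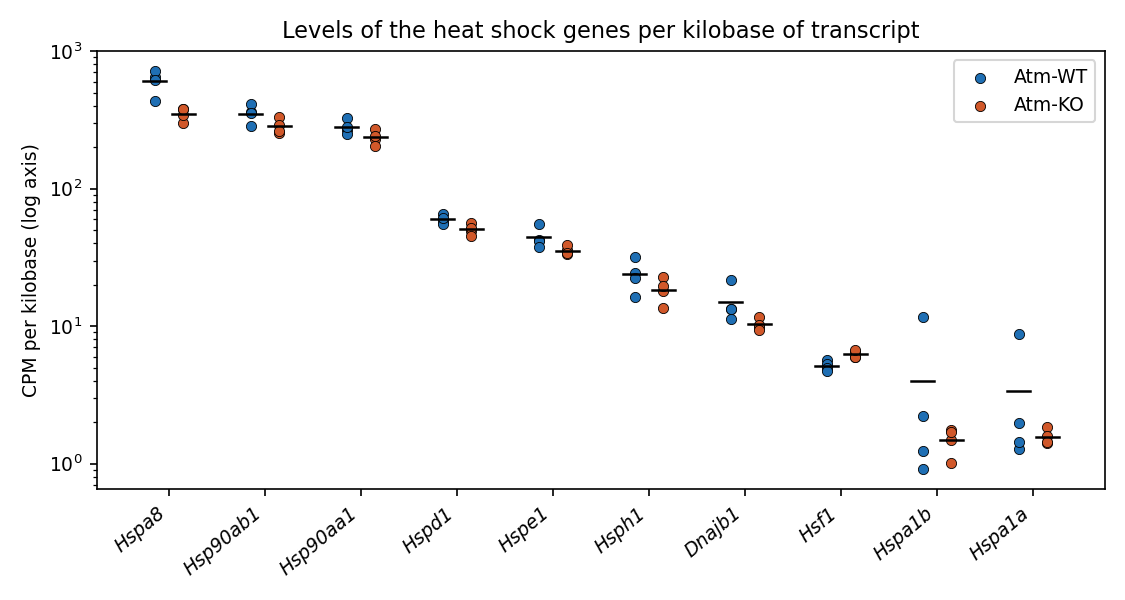
Level of each heat shock gene in CPM per kilobase of canonical transcript on a log axis, with a point for each of 4 mice of a genotype and a bar at the mean, ordered by the *Atm*-WT mean. *Hspa8* was highest with means of 605 in the controls and 351 in the knockouts, and a single *Atm*-WT mouse stood above the rest for *Hspa1b* and *Hspa1a*.

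*Hsf1*, the regulator, was the only one of the 10 genes with a higher mean in the knockout. Its level was 29.3, 27.3, 25.3 and 24.2 CPM in *Atm*-WT mice 2M, 7M, 13M and 32M and 33.6, 30.5, 30.7 and 34.4 CPM in *Atm*-KO mice 1M, 7F, 11M and 12M. The groups did not overlap, and the difference was small, from 26.5 ± 2.26 to 32.3 ± 2 CPM (SD, n = 4), a log2 fold change of 0.29 (standard error 0.081). *Hsf1* shares 2486 of its 9999 exon bases with *Dgat1* and 522 with *Bop1*, both on the opposite strand, and whether reads were counted by strand is not stated. *Dgat1*, which encodes an enzyme of triglyceride synthesis, was at 10.5 to 12.9 CPM in the controls and at 14.4 to 18.9 CPM in the knockouts. *Bop1* was at 23.1 to 25.2 and 22.1 to 24.7 CPM. Reads of *Hsf1* and of *Dgat1* in the shared bases cannot be told apart in these counts.

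*Hspa8* was the only chaperone gene of the 9 whose genotypes did not overlap. It was at 1564, 1726, 1037 and 1469 CPM in *Atm*-WT mice 2M, 7M, 13M and 32M and at 721, 904, 824 and 915 CPM in *Atm*-KO mice 1M, 7F, 11M and 12M. Every knockout mouse was below every control, with *Atm*-WT mouse 13M, the lowest control, nearest to the knockouts. The means were 1449 ± 295 and 841 ± 89.4 CPM (SD, n = 4), a log2 fold change of −0.79 (standard error 0.141) that lay between −0.90 and −0.69 with any mouse left out. *Hspa8* lies on chromosome 9, 12.6 Mb from *Atm*. Since this is bulk tissue, fewer cells that make a transcript and less of it per cell cannot be told apart, here and for every gene below.

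The stress-inducible pair behaved differently, since its difference in means came from a single control mouse. *Hspa1a* was at 5.91, 26, 3.8 and 4.25 CPM in *Atm*-WT mice 2M, 7M, 13M and 32M and at 4.2, 5.5, 4.72 and 4.26 CPM in *Atm*-KO mice 1M, 7F, 11M and 12M. *Hspa1b* was at 6.24, 32.6, 2.55 and 3.48 CPM and at 2.82, 4.14, 4.96 and 4.74 CPM in the same order. *Atm*-WT mouse 7M was 5.58-fold above the mean of the other *Atm*-WT mice for *Hspa1a* and 7.96-fold for *Hspa1b*, and of the other 3 control mice 2M lay a little above, 13M a little below and 32M within the range of the knockouts for both genes. The means were 9.98 ± 10.7 against 4.67 ± 0.599 CPM for *Hspa1a* and 11.2 ± 14.3 against 4.17 ± 0.964 CPM for *Hspa1b* (SD, n = 4). The log2 fold changes of −1.09 (standard error 0.524) and −1.43 (standard error 0.663) became 0.00 and 0.03 without mouse 7M, and −0.56 and −0.63 by limma voom with all 8 mice.

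The partners of HSP70 were lower on average in the knockout with overlapping groups. *Hsph1* was at 150, 198, 101 and 139 CPM in *Atm*-WT mice 2M, 7M, 13M and 32M and at 111, 140, 121 and 84 CPM in *Atm*-KO mice 1M, 7F, 11M and 12M. Mouse 7M was again highest and mouse 13M lowest of the controls, and mouse 13M was below 3 of the 4 knockouts. The means were 147 ± 39.8 and 114 ± 23.4 CPM (SD, n = 4), a log2 fold change of −0.36 (standard error 0.187) that became −0.19 without mouse 7M. *Dnajb1* was at 46.8, 76.8, 39.7 and 47.3 CPM in the controls and at 34.9, 41.5, 36.3 and 33.4 CPM in the knockouts. Here the overlap came from control 13M and knockout 7F. The means were 52.7 ± 16.4 and 36.5 ± 3.51 CPM (SD, n = 4), a log2 fold change of −0.53 (standard error 0.171) that became −0.29 without mouse 7M.

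Both HSP90 genes had somewhat lower means in the knockout, again with overlap. *Hsp90aa1*, the inducible form, was at 940, 1152, 883 and 991 CPM in *Atm*-WT mice 2M, 7M, 13M and 32M and at 806, 959, 859 and 725 CPM in *Atm*-KO mice 1M, 7F, 11M and 12M. *Hsp90ab1*, the constitutive form, was at 972, 1109, 768 and 954 CPM and at 689, 890, 788 and 710 CPM. Knockout 7F lay among the controls for both genes, and for *Hsp90ab1* knockout 11M (788 CPM) was also above control 13M (768 CPM). The log2 fold changes were −0.24 (standard error 0.105) for *Hsp90aa1* and −0.31 (standard error 0.116) for *Hsp90ab1*. The means were 992 ± 116 and 837 ± 98.4 CPM for the former and 951 ± 140 and 769 ± 91 CPM for the latter (SD, n = 4). *Hsp90ab1* shares 266 exon bases with *Slc35b2* on the opposite strand, a gene with 18.1 to 23.8 CPM in all mice.

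The mitochondrial pair also had lower means in the knockout. *Hspd1* was at 142, 159, 133 and 147 CPM in *Atm*-WT mice 2M, 7M, 13M and 32M and at 120, 137, 125 and 110 CPM in *Atm*-KO mice 1M, 7F, 11M and 12M. Only control 13M and knockout 7F crossed. *Hspe1* was at 32.7, 32.4, 29.1 and 42.9 CPM in the controls and at 27.8, 30, 25.7 and 26.4 CPM in the knockouts, where again those same mice crossed and control 32M, not 7M, was highest. The log2 fold changes were −0.24 (standard error 0.0783) for *Hspd1*, from 145 ± 10.8 to 123 ± 11 CPM, and −0.32 (standard error 0.112) for *Hspe1*, from 34.3 ± 5.99 to 27.5 ± 1.88 CPM (SD, n = 4). That of *Hspe1* became −0.19 without mouse 32M. The genes overlap by 143 exon bases on opposite strands, and the annotation names 5 pseudogenes of *Hspd1* and 6 of *Hspe1*. How reads that fit more than 1 of these were counted is not stated.

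**Figure D2:**
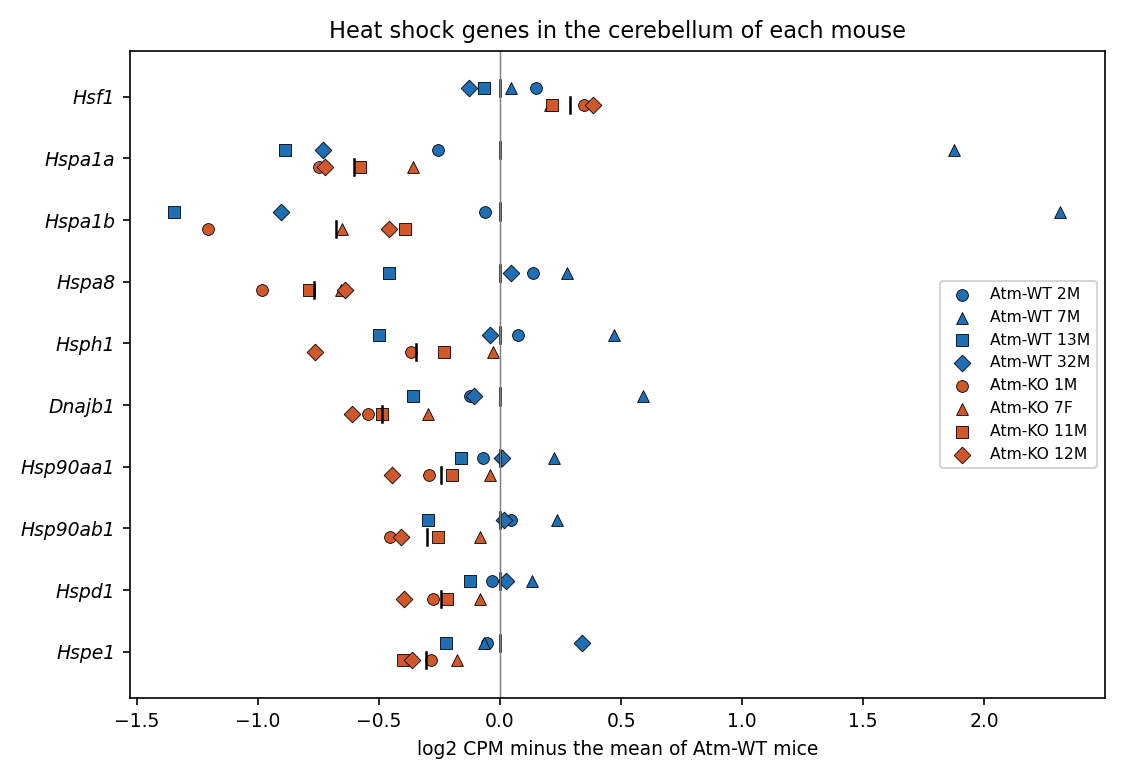
Level of each heat shock gene in each mouse as log2 CPM minus the mean of the 4 *Atm*-WT mice, with a symbol for each mouse, *Atm*-WT in blue above *Atm*-KO in orange, and a bar at the mean of the genotype. *Atm*-WT mouse 7M lies to the right for 8 of the 9 chaperone genes and mouse 13M is the lowest control for all 9, while the genotypes separate fully for *Hspa8* and *Hsf1*.

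The same mice stood high or low across the chaperones. *Atm*-WT mouse 7M was the highest control for 8 of 9 chaperone genes and mouse 13M the lowest for 9 of 9. Their median log2 distance from the *Atm*-WT mean over the 9 genes was 0.28 and −0.36, and the mean distance, on which *Hspa1a* and *Hspa1b* weigh most, was 0.67 and −0.48. *Atm*-WT mice 2M and 32M had medians of −0.05 and 0.01 (means −0.04 and −0.15). *Atm*-KO mice 1M, 7F, 11M and 12M had medians of −0.45, −0.18, −0.39 and −0.46 (means −0.57, −0.26, −0.40 and −0.53). Control mouse 13M thus lay within the range of the knockouts on both measures, and knockout 12M was the lowest of all mice for 4 of the 9 genes. Knockout mouse 7F, the only mouse with the letter F in its label, was the highest knockout for 7 of 9 genes.

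Over the 10 genes, 9 had a lower mean in the knockout, with a median log2 fold change of −0.34. Without *Atm*-WT mouse 7M, 7 of the 10 were lower and the median was −0.20. Among all genes tested 53.1% were lower, with a median of −0.018, and among the 2509 genes with a mean of at least 100 CPM 72.8% were lower, with a median of −0.065. The following counts are given for reference only, since the genes were chosen on this contrast. The quasi-likelihood test of edgeR (p adjusted by Benjamini-Hochberg across the 22423 genes) called 0 of the 10 genes and 4 of all genes (0.0178%) at an adjusted p of less than 0.05. At an unadjusted p under 0.05, 6 of the 10 were lower and 1 higher in the knockout, beside 8.48% and 11.7% of all genes. Genotypes did not overlap for 1 lower gene (*Hspa8*) and 1 higher gene (*Hsf1*), beside 5.12% and 6.47% of all genes. DESeq2 called 2 of the 10 lower and 1 higher at an adjusted p under 0.05, beside 2.44% and 5.05% of the genes it tested.

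**Figure D3:**
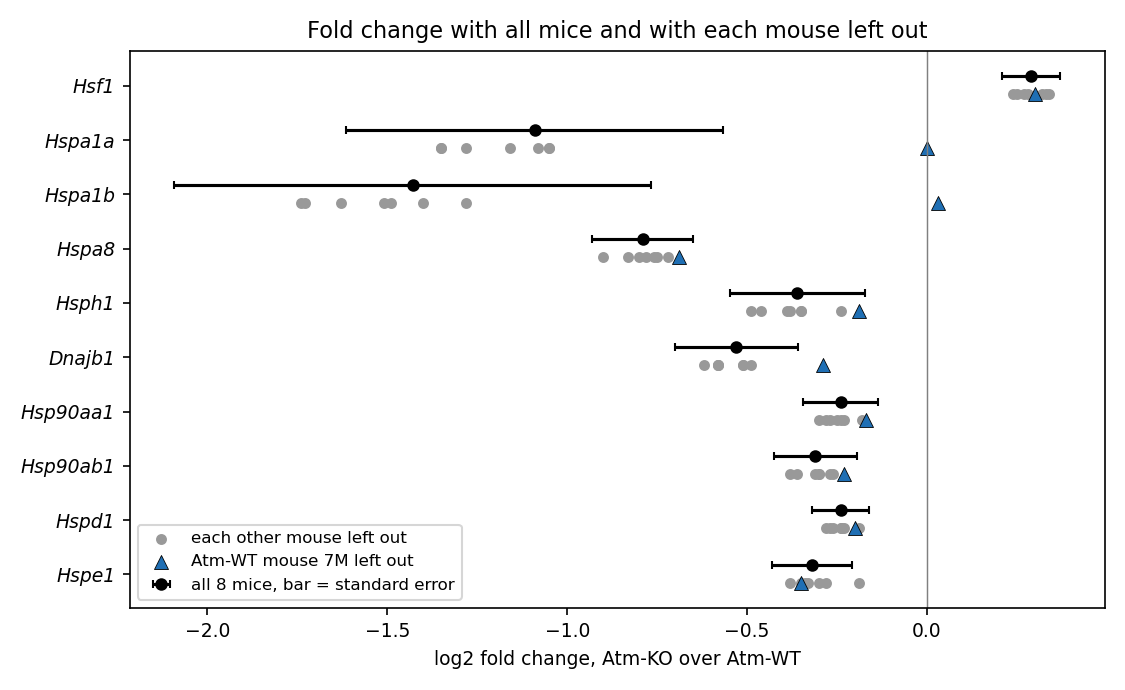
Log2 fold change (*Atm*-KO over *Atm*-WT, edgeR) of each heat shock gene with all 8 mice as a black point with its standard error, with *Atm*-WT mouse 7M left out as a blue triangle, and with each other mouse left out as grey points. *Hspa1a* and *Hspa1b* move to 0.00 and 0.03 without mouse 7M, while *Hspa8* stays between −0.90 and −0.69.

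Variation between mice of the same genotype was not used in choosing the genes and was examined after subtracting the genotype mean of log2 CPM. *Hspa1b* had a within-genotype SD of 1.18 log2 units, larger than that of 99.4% of 15739 genes compared, and *Hspa1a* of 0.913, larger than that of 99%. *Hsph1* (0.357) and *Dnajb1* (0.305) varied more than 85.5% and 80.7% of genes, *Hspa8* (0.252) more than 74.3%. *Hsp90aa1* (0.167), *Hsp90ab1* (0.195), *Hspe1* (0.182), *Hspd1* (0.118) and *Hsf1* (0.107) were nearer the middle or below it. Mouse 7M set the first of these values. Without it, a comparison chosen after seeing the data, the SD was 0.501 for *Hspa1b* (larger than that of 93.2% of genes), 0.25 for *Hspa1a* (74.2%) and 0.138 for *Dnajb1* (44.8%), so that *Hspa1a* varied less than *Hsph1* (0.308).

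Of 5 pairs of partners tested over the 8 mice, 3 varied together. *Hsph1* and *Dnajb1*, which act on the same HSP70 cycle, had a Pearson r of 0.86 (two-sided exact permutation test within genotypes, p = 0.0139, adjusted over 5 pairs 0.0318) and a Spearman rho of 0.93 (exact permutation p = 0.00694, adjusted 0.0347). Without the 2 mice farthest from the median of *Hsph1*, *Atm*-WT 13M and *Atm*-KO 12M, r was 0.94. The copies *Hspa1a* and *Hspa1b* had r = 0.97 (exact permutation p = 0.0191, adjusted 0.0318) and rho = 0.90 (exact permutation p = 0.0243, adjusted 0.0608), and r = 0.77 without *Atm*-WT mice 7M and 13M. These copies share sequence and mouse 7M stands apart for both, so their values are not independent measurements. *Hsp90aa1* and *Hsp90ab1* had r = 0.88 (exact permutation p = 0.0174, adjusted 0.0318) and rho = 0.76 (exact permutation p = 0.059, adjusted 0.0984), and r = 0.67 without *Atm*-WT 7M and *Atm*-KO 7F. With 1 mouse left out, the adjusted exact permutation p stayed under 0.05 only without *Atm*-KO 12M for *Hsph1* with *Dnajb1* and for the HSP90 genes, and only without *Atm*-KO 7F or 12M for the copies, and it was otherwise 0.0694 to 0.148. The correlation itself was 0.79 to 0.93 for *Hsph1* and *Dnajb1*, 0.78 (without *Atm*-WT 7M) to 0.98 for the copies and 0.82 to 0.93 for the HSP90 genes.

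The pair that shares a promoter stretch did not pass the test. *Hspd1* and *Hspe1* had r = 0.41 (exact permutation p = 0.311, adjusted 0.311) and rho = 0.29 (exact permutation p = 0.507, adjusted 0.507), with r = 0.31 without *Atm*-KO 7F and 12M. With 1 mouse left out r ran from 0.19 without *Atm*-WT 13M to 0.60 without 7M and 0.70 without 32M, with an adjusted exact permutation p of 0.694, 0.116 and 0.156, so this pair is not shown to differ from the others. *Atm*-WT mouse 32M was near its genotype mean for *Hspd1* and far above it for *Hspe1*. *Hspa8* and *Hsph1* had r = 0.65 (exact permutation p = 0.153, adjusted 0.191) and rho = 0.55 (exact permutation p = 0.24, adjusted 0.299), with r = 0.38 without *Atm*-WT 13M and *Atm*-KO 1M. With 1 mouse left out r of that pair ran from 0.22 without *Atm*-WT 13M to 0.96 without *Atm*-KO 12M, the latter with an adjusted exact permutation p of 0.0347. As a description over all 36 pairs of chaperones, 34 correlations were positive, with a median of 0.72, beside 50.5% positive and a median of 0.01 over all pairs of the 11700 genes with a mean of at least 5 CPM, whereas 4 of the 9 correlations of *Hsf1* with a chaperone were positive, with a median of −0.02.

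Within the 10 heat shock genes, the deviations of *Hsph1* were most like those of *Hsp90aa1* and *Hspd1* (r = 0.94 for both), and those of *Hspd1* most like those of *Hsp90aa1* (r = 0.99). With the 10 genes left out of the ranking, the genes most like *Hsph1* among 11690 others with a mean of at least 5 CPM were *Zfp595* (r = 0.977), *Plod1* (0.968), *Itga9* (0.959), *Wdtc1* (0.956) and *Msl1* (0.955), each over 8 mice. For *Hspd1* they were *Peg10* (0.972), *L3mbtl3* (0.969), *Kif2a* (0.960), *Rpgrip1l* (0.955) and *Gpx3* (0.955). With 8 mice and this many genes such values are a ranking only.

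In the opposite direction, the cold-inducible RNA-binding protein genes *Rbm3* and *Cirbp*, which are known to rise when temperature falls, ran opposite to *Hsph1* and *Hspd1* within each genotype. *Rbm3* was at 51.3, 39.2, 67 and 49.3 CPM in *Atm*-WT mice 2M, 7M, 13M and 32M and at 56.1, 37.1, 47.4 and 65 CPM in *Atm*-KO mice 1M, 7F, 11M and 12M. *Cirbp* was at 30.9, 24.6, 41 and 38.7 CPM and at 35.6, 29.1, 38 and 43.1 CPM. Both were lowest in control 7M and knockout 7F, where most chaperones were highest, and highest in control 13M and knockout 12M. Not every chaperone was low in knockout 12M. *Hspa8* and *Hspa1b* lay above their knockout mean there, by 0.128 and 0.217 log2 units, and the other chaperones lay below theirs. The deviations of *Hsph1* had r = −0.954 with *Rbm3* (rho = −0.90, and r = −0.89 without 2 mice) and −0.911 with *Cirbp*. Those of *Hspd1* had r = −0.987 and −0.829. These genes were looked at after their values had been seen, so the correlations over 8 mice are given without a p. Body temperature at sampling is not given in the sources used here, and its part in these values was not tested. Between genotypes *Rbm3* and *Cirbp* had log2 fold changes of −0.01 and 0.11.

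**Figure D4:**
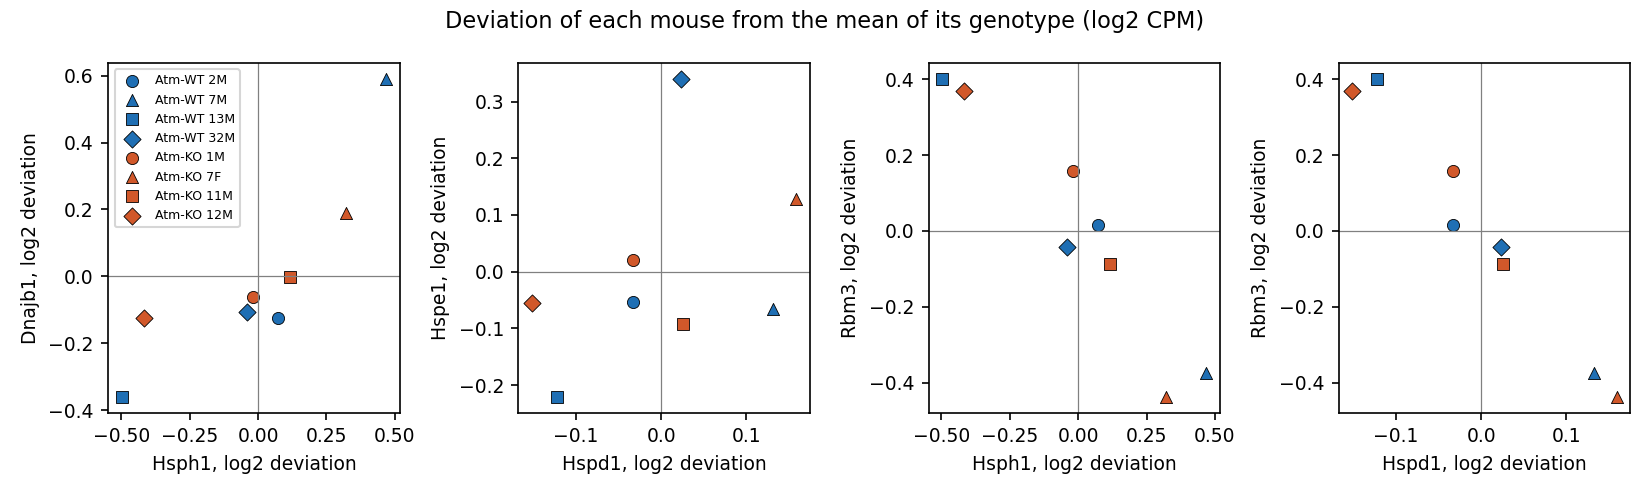
Deviation of each mouse from the mean of its genotype in log2 CPM, for *Hsph1* against *Dnajb1*, *Hspd1* against *Hspe1*, *Hsph1* against *Rbm3* and *Hspd1* against *Rbm3*, with a symbol for each mouse, *Atm*-WT in blue and *Atm*-KO in orange. The first panel rises (r = 0.86), the second scatters (r = 0.41), and both panels with *Rbm3* fall (r = −0.954 and −0.987).

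The chaperone network around the 10 genes was taken from 8 lists of 99 other genes, of which 96 were tested. Of these, 83 were lower in the knockout, with a median log2 fold change of −0.15, and 0 were called by edgeR at an adjusted p under 0.05. At an unadjusted p under 0.05 edgeR found 31 lower and 1 higher, genotypes did not overlap for 16 lower and 1 higher, and DESeq2 called 8 lower and 0 higher at an adjusted p under 0.05. The shares of all genes tested are those given above, and among the 7749 genes with a mean of at least 20 CPM 67.8% were lower, with a median of −0.058.

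The small heat shock proteins, which hold unfolded proteins in solution, and *Bag3*, an HSP70 partner in the clearance of aggregates, had the lowest median of these lists, −0.54, with all 6 genes tested of 9 lower in the knockout. *Cryab* (αB-crystallin) was at 33, 26.2, 16.6 and 32.9 CPM in *Atm*-WT mice 2M, 7M, 13M and 32M and at 9.88, 15.5, 11.2 and 13.4 CPM in *Atm*-KO mice 1M, 7F, 11M and 12M. The groups did not overlap, with an adjusted p of 0.0931 by edgeR, 1.4e-05 by DESeq2 and up to 0.293 over all alternatives. *Hspb8* was at 17.2 ± 1.49 and 11.1 ± 1.74 CPM (SD, n = 4), a log2 fold change of −0.64 with an adjusted p of 0.0931 by edgeR and 2.6e-04 by DESeq2 (up to 0.293 over all alternatives). *Hspb1* (HSP27) had a log2 fold change of −0.80, with overlapping groups and an adjusted p of 0.115 by edgeR and 0.00798 by DESeq2 (up to 0.310 over all alternatives). *Bag3*, whose highest control was mouse 7M at 26.1 CPM, and *Hspb6* had −0.35 and −0.20. *Cryab* lies 2.68 Mb from *Atm*, and *Cryab* is also known as a transcript of oligodendrocytes.

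Of 27 HSP70 relatives and partners, 25 were lower, with a median of −0.11. *Dnaja4*, a J-domain partner, was at 44.4, 52, 42.7 and 44.4 CPM in *Atm*-WT mice 2M, 7M, 13M and 32M and at 30.2, 31.1, 29.6 and 33.7 CPM in *Atm*-KO mice 1M, 7F, 11M and 12M. The groups were well apart, with a log2 fold change of −0.56 (standard error 0.0787) and an adjusted p of 0.0513 by edgeR, just above the threshold, and 5.4e-06 by DESeq2 (up to 0.263 over all alternatives). *Dnaja4* lies 1.16 Mb from *Atm* and shares 1583 exon bases with *Skic8* on the opposite strand, which was at 25.6 to 31.6 CPM in all mice. *Hspa2*, an HSP70 gene, had a log2 fold change of −0.50 with an adjusted p of 0.0942 by edgeR and 0.00549 by DESeq2 (up to 0.293 over all alternatives), and *Dnajb4* of −0.22 with 0.12 by edgeR (0.0617 to 0.314 over all alternatives).

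Among the HSP90 co-chaperones 12 of 15 were lower, with a median of −0.14. *Stip1*, which links HSP70 to HSP90, had a log2 fold change of −0.36 and *Ahsa1*, which speeds the HSP90 ATPase, of −0.19, with adjusted p of 0.212 and 0.189 by edgeR. *Fkbp5*, also a glucocorticoid-induced gene, was at 30.9, 14.8, 58.4 and 16.1 CPM in *Atm*-WT mice 2M, 7M, 13M and 32M and at 12.7, 16.5, 11.5 and 7.55 CPM in *Atm*-KO mice 1M, 7F, 11M and 12M. *Fkbp5* had a log2 fold change of −1.32, with overlapping groups and an adjusted p of 0.122 by edgeR (0.0317 to 0.308 over all alternatives). It was highest in control 13M, where the 9 chaperones were lowest among the controls. Among the knockouts it was highest in 7F, where 7 of the 9 chaperones were also highest. Its deviations had r = −0.319 with *Hsph1* and −0.202 with *Hspd1* over 8 mice (−0.15 and −0.92 without 2 mice).

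The subunits of the cytosolic chaperonin and of prefoldin, which delivers actin and tubulin to it, were lower for 12 of 14 genes, with a median of −0.19. *Cct5* had a log2 fold change of −0.27 with an adjusted p of 0.102 by edgeR and 0.0243 by DESeq2 (up to 0.294 over all alternatives), and *Tcp1* and *Pfdn6* had −0.21 and −0.39. Mitochondrial chaperones and proteases had a median of −0.05, with 8 of 12 lower. *Hspa9* (mortalin), *Clpb* and *Clpp* had −0.13, −0.16 and −0.25. Chaperones of the endoplasmic reticulum, which answer to another stress pathway, were lower for 12 of 12 genes, with a median of −0.18. Of these *Dnajb9* did not overlap between genotypes and had a log2 fold change of −0.27, with an adjusted p of 0.0931 by edgeR and 0.00643 by DESeq2 (up to 0.293 over all alternatives). *Calr* and *Dnajc3* had −0.24 and −0.16.

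Of the 5 other known HSF1 targets, all 5 were lower, with a median of −0.23. *Ubb*, which encodes ubiquitin, had a log2 fold change of −0.40, with an adjusted p of 0.136 by edgeR and 0.0395 by DESeq2 (up to 0.341 over all alternatives). *Serpinh1* (HSP47, the collagen chaperone), *Cacybp* and *Hmox1* had −0.28, −0.23 and −0.15. Among other HSF family genes and their regulators, 3 of 5 were lower. *Hsf2* and *Hsf5* had log2 fold changes of 0.19 and 0.97, the latter at 0.338 to 0.653 CPM in the controls and 0.71 to 1.56 CPM in the knockouts, and *Hsbp1*, which encodes a small protein that binds HSF1, had −0.33. None of these 3 had an adjusted p under 0.05 by edgeR or DESeq2.

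**Figure D5:**
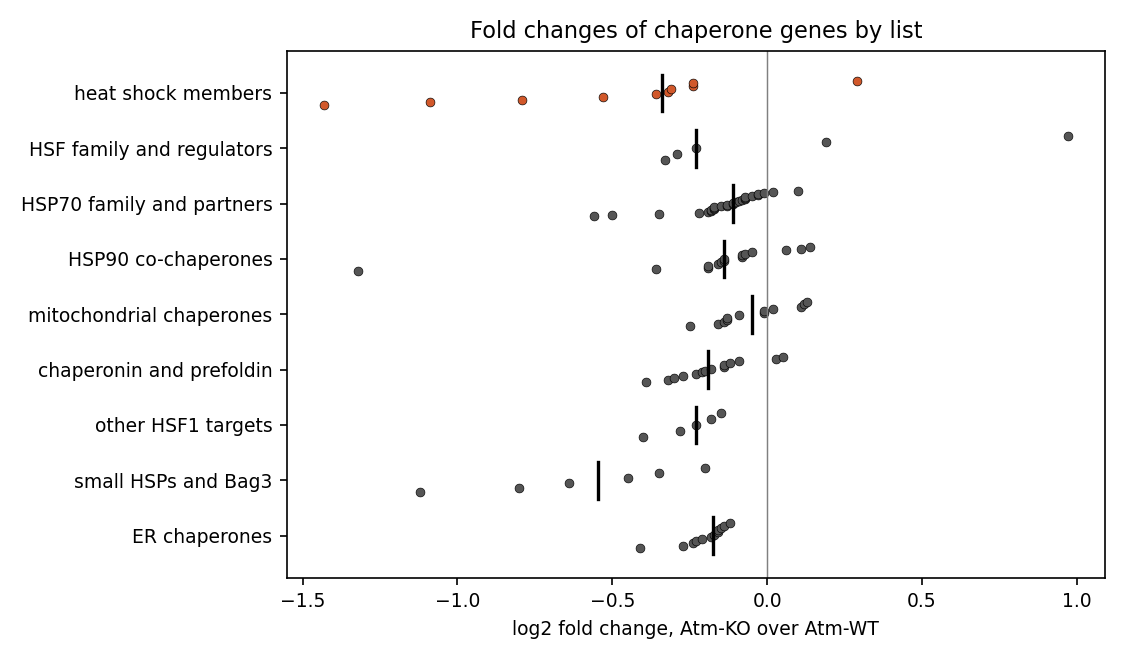
Log2 fold change (*Atm*-KO over *Atm*-WT, edgeR) of each gene tested in the 10 heat shock genes and in 8 lists of other chaperone genes, with a bar at the median of the list. The medians run from −0.54 for small heat shock proteins with *Bag3* to −0.05 for mitochondrial chaperones, beside −0.018 for all genes tested and −0.058 for genes with a mean of at least 20 CPM.

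Marker genes of other cell types also differed in their mean level. All 5 oligodendrocyte markers were lower in the knockout, with summed levels of 2878 to 3853 CPM in the controls and 1711 to 3032 CPM in the knockouts, and so were all 5 microglial markers, at 72.6 to 101 and 59.3 to 77.1 CPM. All 5 markers of astrocytes and Bergmann glia (4681 to 5416 and 4138 to 4902 CPM) and all 4 of choroid plexus (727 to 1476 and 395 to 1158 CPM) were lower too. Of 5 endothelial markers 3 were lower (209 to 230 and 169 to 218 CPM), of 4 meningeal markers 2 (52.4 to 71.3 and 43.8 to 59.7 CPM), of 5 Purkinje markers 4, of 5 granule markers 1 and of 5 red blood cell markers 0 (5.87 to 42.9 and 7.8 to 49.5 CPM). Of the 5 markers of deep nuclei and brainstem 3 passed the filter, and 2 were lower (133 to 165 and 59.6 to 171 CPM). Of 8 immediate early genes 7 were lower, with a median log2 fold change of −0.46. Among the controls, mouse 7M, where most chaperones were highest, had the lowest oligodendrocyte sum and the highest Purkinje (9486 CPM), granule (4084 CPM), astrocyte, endothelial and meningeal sums. Among the knockouts, 4 chaperones were lowest in mouse 12M and 4 in mouse 1M. Mouse 12M had the lowest oligodendrocyte, microglial, endothelial and astrocyte sums and the highest granule sum. Mouse 1M had the reverse for 2 of these, with the highest oligodendrocyte sum (3032 CPM) and the lowest granule sum (3422 CPM) of the knockouts. The part of cell composition in the chaperone values was not tested.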

How the data were processed

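Bulk RNA sequencing data of 8 mouse cerebella were analysed from the raw counts per gene that the authors deposited. Per the study's methods, RNA was sequenced by Novogene, reads were checked with FastQC 0.11.9, aligned with STAR to GRCm39 and counted with featureCounts, and the annotation was GENCODE Release 28. Strand, pair and multi-mapping settings of the counting are not given in the sources used here. No value was normalized before deposit, and 0 columns of the table were left unused. Of the identifiers, 56017 (98.8%) were found in GENCODE vM39, an annotation of the same build. Promoters were read from the same build.

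Libraries were grouped by genotype. Genes kept by filterByExpr were normalized by TMM and fitted with the quasi-likelihood test of edgeR 4.0.16 in R 4.3.3, with Benjamini-Hochberg adjustment over all 22423 genes and no covariate. The common dispersion was 0.0404. DESeq2 1.42.0 (the tool of the study), limma 3.58.1 voom, other scaling, other filters and each mouse left out were alternatives, and the spread between mice and the levels without a single mouse were added after seeing the data. log2 CPM used a prior count of 2. Libraries held at least 65967130 counts, and the count test covers counting error and the spread between mice together. Each label was taken as a separate mouse. The fit and the correlation test were checked on simulated data.

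The members and lists were chosen with earlier results of these data known. Genes named were the 10 heat shock genes, the 3 genes of smallest p in each other chaperone list, all genes with at least 1 CPM among the cold-inducible genes, small heat shock proteins and other HSF1 targets, and the 5 genes outside the 10 that were most like *Hsph1* and *Hspd1*. The values of 1 gene under this rule are not reported here, and it stays in the counts and median of its list. *Atm*, overlapping genes and marker lists were added as checks. No protein sequences were used here.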

Additional observations from a re-analysis of the deposited data

Results flagged for a closer look

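In groups of 4 mice, a mouse was marked when its gap to the nearest other mouse, divided by the range of the group, exceeded the critical value of Dixon's test. *Hspa1a* was at 26 CPM in *Atm*-WT mouse 7M, with the other *Atm*-WT mice between 3.8 and 5.91 CPM. *Hspa1b* was at 32.6 CPM in the same mouse, with the others between 2.55 and 6.24 CPM. *Hsbp1* was at 55.7 CPM in *Atm*-KO mouse 7F, with the other knockouts between 44.3 and 44.9 CPM. *Dnajb9* was at 43 CPM in *Atm*-KO mouse 12M, with the other knockouts between 46.8 and 47.2 CPM. These were 4 of 100 groups examined, and chance alone marks about 5 (1 in 20). The copies *Hspa1a* and *Hspa1b* share sequence and count as a single signal.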

How the results depend on the processing

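The median log2 fold change of the 10 genes (−0.34) stayed below 0 under all 14 alternatives, from −0.44 without *Atm*-WT 13M to −0.20 without *Atm*-WT 7M, and 9 of them were lower under each but the last, where 7 were. The median of the other chaperone lists (−0.15) lay between −0.17 and −0.10, the latter with library size alone. Without *Atm*-WT 7M the fold changes of *Hspa1a* and *Hspa1b* were 0.00 and 0.03, and those of *Hsph1* and *Dnajb1* −0.19 and −0.29. By limma voom with all mice those of *Hspa1a* and *Hspa1b* were −0.56 and −0.63. The number of genes called at an adjusted p under 0.05 was 4 by edgeR, 1552 by DESeq2 and 591 without a filter on low counts, and 1 to 27 with 1 mouse left out (27 without *Atm*-WT 13M, 10 without 32M, 2 without 7M, and 1 without *Atm*-WT 2M, *Atm*-KO 1M or *Atm*-KO 11M). In the other chaperone lists edgeR called 0, DESeq2 8 and edgeR without the filter 6, and 0 to 2 were called with 1 mouse left out (2 without *Atm*-WT 13M, 1 without *Atm*-KO 12M). The cause of these differences in number was not tested. With 1 mouse left out, r ranged from 0.79 to 0.93 for *Hsph1* and *Dnajb1*, from 0.78 to 0.98 for *Hspa1a* and *Hspa1b*, from 0.82 to 0.93 for *Hsp90aa1* and *Hsp90ab1*, from 0.19 (without *Atm*-WT 13M) to 0.70 (without *Atm*-WT 32M) for *Hspd1* and *Hspe1*, and from 0.22 (without *Atm*-WT 13M) to 0.96 (without *Atm*-KO 12M) for *Hspa8* and *Hsph1*, the last with an adjusted exact permutation p of 0.0347. No paired analysis was possible because the labels give the genotypes only 1 mouse number in common. The lowest count of the 10 genes in any library was 219.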
